A study of Mus musculus with 12 samples.

Results

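Cpz, Sytl1, Adhfe1 and Hopx are 4 autosomal genes, taken by name from the 24627 genes in the count files of the Xist‐TetOP lines. They were chosen by their CPM (counts relative to the library total, scaled): for changes with DOX in the silencing lines Xist FL and Xist ΔB+C that Xist ΔA lacks, or for a difference between lines. The levels with and without DOX in each line, and the differences of these between lines, therefore chose the genes and are given as a description, without a test. All 4 were found in the 12 libraries and all 4 passed the filter of at least 1 CPM in at least 6 libraries, together with 13191 genes in all, 12721 of them autosomal. Cpz, Sytl1 and Adhfe1 were higher with DOX in both silencing lines. Hopx was not a responder in both of these lines: it was lower with DOX in Xist ΔB+C, while its DOX and noDOX libraries overlapped in Xist FL.

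The cells were J1 mouse ES cells, an XY line, in which the endogenous Xist gene on the only X chromosome was placed under a tetracycline‐inducible promoter, so that every group carried the inducible allele. Xist FL expresses the full‐length RNA, Xist ΔA lacks the A repeat and Xist ΔB+C lacks the B and C repeats. The labels give the line of each library but name no clone. The lines are called FL, ΔA and ΔB+C from here on. Each line was grown for 2 days after LIF withdrawal with 1.5 μg/ml DOX or without DOX (noDOX), which gave 6 groups of 2 libraries. The libraries of a group are biological duplicates according to the study's text. Bulk RNA was measured, and fewer cells that express a gene cannot be told apart from less RNA per cell. The paper also counted induced cells by RNA FISH, which stains Xist RNA in single cells. With DOX, the share of induced cells was largest in ΔB+C, smaller in ΔA and smallest in FL. The DOX responses given here were not adjusted for this share, and its part in differences between lines was not tested.

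Xist RNA acts in cis, on the chromosome that transcribes it. The A repeat is needed for gene silencing, and the B and C repeats are needed for recruitment of Polycomb complexes. The 4 genes lie on other chromosomes than Xist. Of these, Cpz encodes carboxypeptidase Z, a secreted zinc enzyme that trims basic residues from protein ends and carries a Frizzled‐type domain that can bind Wnt proteins. Sytl1 encodes a synaptotagmin‐like effector of the small GTPase Rab27, which tethers secretory vesicles before exocytosis. Adhfe1 encodes a mitochondrial, iron‐containing transhydrogenase that oxidises gamma‐hydroxybutyrate while it forms D‐2‐hydroxyglutarate. Hopx encodes a small homeodomain protein that does not bind DNA and that works through SRF and histone deacetylases, known best from heart development and from stem cells of several tissues.

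Xist itself was used to check the labels. It lay between 2.48 and 3.0 CPM in the noDOX and between 869 and 908 CPM in the DOX libraries of FL, between 6.35 and 8.27 and between 570 and 722 CPM in ΔA, and between 2.49 and 2.54 and between 1159 and 1791 CPM in ΔB+C. The libraries held between 31337490 and 41240470 counts. The 8 ES cell markers, among them Pou5f1 and Sox2, summed to between 3357 and 5374 CPM. Markers of other cell types summed to between 12.5 and 59.1 CPM for 8 fibroblast genes, 23.1 and 56.9 for 7 primitive endoderm genes, 94.5 and 788 for 8 trophoblast genes and 16.8 and 28.4 for 7 cardiac mesoderm genes, and none of these genes was at 0 in all libraries. The library of ΔB+C DOX replicate 2 was made from 100 ng of RNA by a low input method and the others from 1000 ng, and values without it are given beside the results that rest on it. Between libraries with replicate number 2 and those with number 1, 6102 of the 13191 genes (46.3%) differed by edgeR's quasi‐likelihood test at an adjusted p under 0.05.

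Cpz lies on chromosome 5 (mm10, 35502218 to 35525698, minus strand), Sytl1 on chromosome 4 (133253090 to 133263113, minus strand), Adhfe1 on chromosome 1 (9547948 to 9580673, plus strand) and Hopx on chromosome 5 (77086988 to 77115121, minus strand) in GENCODE vM21. Cpz and Hopx are thus on 1 chromosome but far from each other. Because Cpz and Sytl1 were high in the same groups and Hopx was low in 1 of these, the bases just before their starts are shown, from RefSeq on GRCm38.p6. They are written 5′ to 3′ on the strand of the gene, with each CG in capitals, and they end at the GENCODE start of Cpz and Sytl1 and 2 bases before that of Hopx.

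Cpz (chr5:35525699-35525876, minus strand): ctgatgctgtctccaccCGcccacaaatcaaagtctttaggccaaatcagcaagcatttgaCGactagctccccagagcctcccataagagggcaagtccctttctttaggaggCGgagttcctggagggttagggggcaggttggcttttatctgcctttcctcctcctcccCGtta
Sytl1 (chr4:133263114-133263337, minus strand): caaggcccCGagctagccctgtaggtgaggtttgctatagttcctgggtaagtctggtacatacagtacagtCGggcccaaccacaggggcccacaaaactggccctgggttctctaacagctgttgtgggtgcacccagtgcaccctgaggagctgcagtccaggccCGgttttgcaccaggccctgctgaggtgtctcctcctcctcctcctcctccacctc
Hopx (chr5:77115124-77115373, minus strand): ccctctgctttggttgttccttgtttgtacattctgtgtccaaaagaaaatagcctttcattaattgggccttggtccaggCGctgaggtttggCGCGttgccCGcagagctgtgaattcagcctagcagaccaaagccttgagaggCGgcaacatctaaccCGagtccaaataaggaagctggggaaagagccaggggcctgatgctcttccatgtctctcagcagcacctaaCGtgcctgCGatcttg

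In the full window of 250 bases before the RefSeq start, Cpz had 8 CG, Sytl1 4 and Hopx 8, against a median of 6 over 32851 mouse promoters, and 92.1% of those held at least 1 CG. A second start of Hopx, within the gene, had 18 CG. The promoters were searched on both strands for the GC box GGGCGG, which itself contains a CG, as does the E box CACGTG, for the TATA box TATAAA and for the CCAAT motif. The GC box was found 1 time in Cpz and not in the others (32.7% of all promoters hold it), and the CCAAT motif 1 time at each Hopx start (33.8%). The E box was found only at the inner Hopx start (6.02%), and the TATA box at none of them (12.4%). Cpz and Sytl1 thus shared none of these motifs apart from CG. Adhfe1 was not matched in the promoter table.

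Of the 4 genes, Cpz had the largest difference between DOX and noDOX. In FL it stood at 2.75 and 1.91 CPM in noDOX replicates 1 and 2 and at 7.60 and 8.47 CPM with DOX. In ΔB+C it stood at 3.57 and 2.02 CPM without and at 13.4 and 15.0 CPM with DOX. In ΔA the values were 4.57 and 3.86 CPM without and 3.40 and 3.14 CPM with DOX. The DOX libraries thus lay above the noDOX libraries in FL and ΔB+C without overlap, and a little below them, again without overlap, in ΔA. The highest Cpz values of the series were those of ΔB+C with DOX, above both FL libraries with DOX.

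In the fit over all genes, the log2 (fold change) of Cpz with DOX was 1.78 ± 0.28 (SE, 2 against 2 libraries) in FL, a 3.44‐fold difference, and 2.34 ± 0.28 in ΔB+C, a 5.07‐fold difference. It was -0.37 ± 0.27 in ΔA. Of 12721 autosomal genes tested, 3 had a larger log2 (fold change) than Cpz in FL and 0 in ΔB+C. The ratio depended on which libraries were set against each other, since DOX over noDOX was 2.76 in libraries numbered 1 and 4.44 in those numbered 2 for FL, and 3.76 and 7.45 for ΔB+C. Most of that spread came from the noDOX libraries, in which replicate 2 was lower than replicate 1 by -0.52 in FL and -0.81 in ΔB+C on the log2 scale, while the DOX libraries differed by 0.15 and 0.16. The response in ΔB+C exceeded that in FL by 0.56 ± 0.38 on the log2 scale, and this value ran from 0.21 without ΔB+C noDOX replicate 2 to 1.03 without ΔB+C noDOX replicate 1. This difference was not adjusted for the larger share of induced cells in ΔB+C. Without the low input library, the log2 (fold change) in ΔB+C was 2.26 ± 0.33.

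Sytl1 resembled Cpz in FL but differed less between the lines with DOX. In FL it stood at 2.80 and 3.45 CPM without and at 7.08 and 9.94 CPM with DOX. In ΔB+C it stood at 3.47 and 4.28 CPM without and at 10.5 and 11.7 CPM with DOX. In ΔA it stood at 4.06 and 3.12 CPM without and at 3.55 and 2.73 CPM with DOX. All 4 DOX libraries of FL and ΔB+C lay above every other library, and in ΔA the DOX and noDOX libraries overlapped.

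The log2 (fold change) of Sytl1 with DOX was 1.45 ± 0.24 (SE) in FL, 1.52 ± 0.24 in ΔB+C and -0.19 ± 0.25 in ΔA. The response of ΔB+C was above that of FL by 0.08, less than the SE of either. Of the autosomal genes, 13 had a larger log2 (fold change) in FL. The 2 DOX libraries of FL were the least alike of Sytl1's pairs, with replicate 2 higher by 0.49 on the log2 scale, and without it the log2 (fold change) in FL was 1.18. Without the low input library, the value in ΔB+C was 1.45 ± 0.29.

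Adhfe1 had the lowest level and the widest spread of the 4. It stood at 1.46 and 0.982 CPM in noDOX and at 2.80 and 2.81 CPM in DOX libraries of FL. In ΔB+C it stood at 1.03 and 1.81 CPM without and at 2.39 and 3.41 CPM with DOX. In ΔA it stood at 1.97 and 2.65 CPM without and at 1.65 and 2.70 CPM with DOX. The DOX libraries were higher without overlap in FL and ΔB+C, but the ΔA libraries, with or without DOX, reached up to the level of the DOX libraries of the other lines.

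These values rest on 35 to 108 counts per library, for which counting error alone is 16.9% at the lowest and 9.62% at the highest count. Of the autosomal genes, 42 had a larger log2 (fold change) than Adhfe1 in FL and 175 in ΔB+C. The log2 (fold change) of Adhfe1 with DOX was 1.19 ± 0.37 (SE) in FL, 1.03 ± 0.37 in ΔB+C and -0.09 ± 0.36 in ΔA. In ΔB+C it ran from 0.67 without noDOX replicate 1 to 1.49 without noDOX replicate 2, and it was 0.75 ± 0.44 without the low input library. The counting did not use strand, and Adhfe1 shares 154 exon bases with the antisense gene 2610203C22Rik, so that reads of the 2 cannot be told apart there. The level of 2610203C22Rik in its own row was at most 0.132 CPM.

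Hopx went the other way and in a single line. It stood at 6.70 and 6.0 CPM without and at 2.86 and 2.84 CPM with DOX in ΔB+C. In FL it stood at 6.97 and 8.42 CPM without and at 7.05 and 6.0 CPM with DOX. In ΔA it stood at 6.61 and 7.80 CPM without and at 9.07 and 8.54 CPM with DOX. The 2 ΔB+C DOX libraries lay far below the other 10, which ran from 6.0 to 9.07 CPM, and DOX and noDOX overlapped in FL. In ΔA the DOX libraries lay a little above the noDOX libraries without overlap.

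The log2 (fold change) of Hopx with DOX was -1.15 ± 0.17 (SE) in ΔB+C, 2.22‐fold lower, -0.24 ± 0.17 in FL and 0.29 ± 0.17 in ΔA. Of 12721 autosomal genes, 47 had a lower value in ΔB+C. The response in ΔB+C was below that in FL by -0.92 ± 0.24 and below that in ΔA by -1.44 ± 0.24 on the log2 scale. Neither difference was adjusted for the larger share of induced cells in ΔB+C. Without the low input library, the value in ΔB+C was as large, -1.15 ± 0.23. Hopx shares 412 exon bases with the antisense gene Hopxos, which has no row in the files, and with unstranded counting reads of Hopxos in that stretch would count as Hopx.

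**Figure D1:**
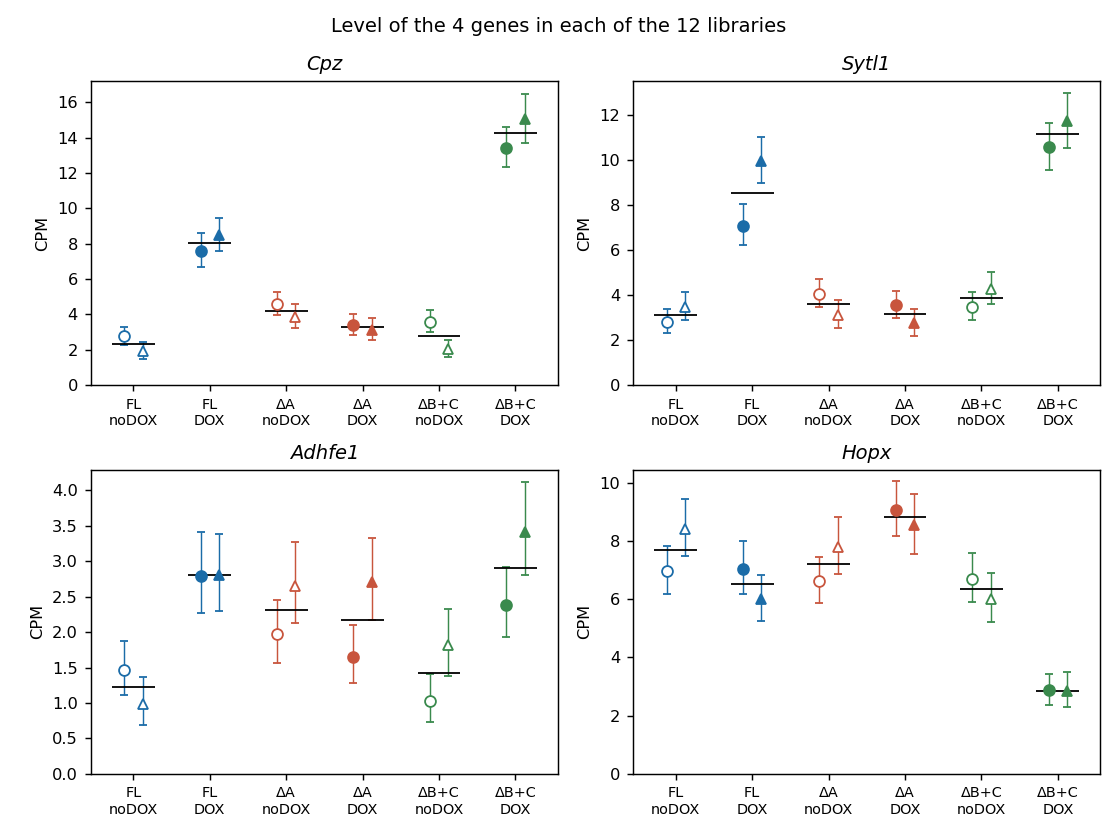
Level of Cpz, Sytl1, Adhfe1 and Hopx (y axis, CPM on a linear scale) in the 6 groups (x axis), with circles for replicate 1, triangles for replicate 2, filled for DOX and open for noDOX. Vertical bars are 95% Poisson intervals of the count, which cover counting error only, and horizontal lines are means of 2 libraries. Cpz and Sytl1 stand highest in ΔB+C with DOX, at 13.4 and 15.0 and at 10.5 and 11.7 CPM, and Hopx stands lowest there, at 2.86 and 2.84 CPM.

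**Figure D2:**
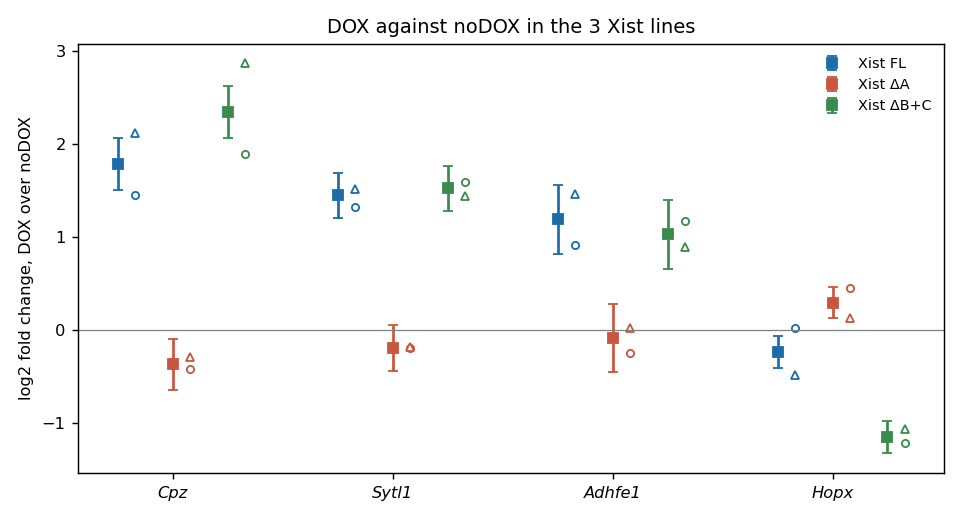
Difference between DOX and noDOX (y axis, log2 fold change) of the 4 genes (x axis) in each line. Squares with bars are the fitted value ± SE from 2 against 2 libraries, and small open symbols are the differences between libraries of the same replicate number (circles 1, triangles 2). Cpz, Sytl1 and Adhfe1 lie between 1.03 and 2.34 in FL and ΔB+C and between -0.37 and -0.09 in ΔA, and Hopx lies at -1.15 in ΔB+C only.

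Non‐overlap of 2 against 2 libraries was common in these data. DOX and noDOX libraries did not overlap for 48.2% of all tested genes in FL, 23.5% in ΔA and 43% in ΔB+C. Of the 4 genes, 3 did not overlap in FL, 2 in ΔA and 4 in ΔB+C. DOX libraries were the higher in both FL and ΔB+C for 12.1% of all genes and for 3 of the 4. The rule used these values, and nothing is read from the counts. Across all genes, edgeR's quasi‐likelihood test called 163 genes (1.24%) for DOX in FL, 1 (0.00758%) in ΔA and 388 (2.94%) in ΔB+C. For the difference of the DOX response it called 0 genes between ΔA and FL, 0 between ΔB+C and FL and 27 (0.205%) between ΔB+C and ΔA. At an unadjusted p under 0.05 these differences of response counted 981, 106 and 1596 genes, and DESeq2 called 144, 0 and 382.

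Without DOX the lines already differed for some of the 4. The noDOX libraries of ΔA lay above those of FL without overlap for Cpz and for Adhfe1, by 0.85 ± 0.28 and 0.91 ± 0.37 (SE) on the log2 scale. They overlapped for Sytl1 and Hopx, with differences of 0.20 and -0.09. With DOX, Adhfe1 stood at 2.18 CPM on average in ΔA against 2.80 CPM in FL, and Cpz at 3.27 against 8.03 CPM. Between ΔB+C and FL the noDOX differences were 0.26 for Cpz, 0.31 for Sytl1, 0.21 for Adhfe1 and -0.28 for Hopx. Those of Cpz and Adhfe1 changed sign when 1 noDOX library of ΔB+C was left out, to -0.21 and -0.26. Over all genes, 57.2% did not overlap between ΔA and FL without DOX and 35.5% between ΔB+C and FL, and 1298 (9.84%) and 3 (0.0227%) passed edgeR's test.

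The genes were not chosen on the difference between replicate numbers, but the choice used the libraries of both numbers. A wide spread between the numbers could have kept a gene from being chosen, so this comparison is not independent of the choice. In edgeR's quasi‐likelihood test with the 6 groups as further terms, none of the 4 genes differed between the libraries numbered 2 and those numbered 1, against 46.3% of all genes. The log2 differences were -0.18 ± 0.13 (SE) for Cpz (adjusted p = 0.271), 0.10 ± 0.13 for Sytl1 (adjusted p = 0.525), 0.33 ± 0.17 for Adhfe1 (adjusted p = 0.129) and 0.01 ± 0.09 for Hopx (adjusted p = 0.957), each from 6 against 6 libraries. At an unadjusted p under 0.05 the count was also 0 of 4, as it was in DESeq2 and limma‐voom. Adhfe1 passed without either noDOX library of FL, at 0.47 (edgeR, lowest adjusted p = 0.0250). For Hopx, the SE limits the difference more closely than for the others. A low level lowers the chance of a call, and 22%, 21.5%, 9.17% and 23.9% of tested genes had a lower mean level than Cpz, Sytl1, Adhfe1 and Hopx.

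The spread between replicates also varied among the 4. The pooled SD within groups on the log2 scale was 0.29 for Cpz, 0.24 for Sytl1, 0.39 for Adhfe1 and 0.13 for Hopx. The 500 genes nearest in mean level to each had median SDs of 0.23, 0.23, 0.32 and 0.22. Cpz and Adhfe1 thus varied more between replicates, and Hopx less, than the median gene of their level. Per kb of exon, the mean level over the 12 libraries was 4.34 CPM for Hopx, 2.59 for Cpz, 2.21 for Sytl1 and 0.566 for Adhfe1.

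Over the 12 libraries, on log2 CPM, Cpz and Sytl1 varied together (Pearson's r = 0.89), and both ran against Hopx (r = -0.79 and -0.81). Adhfe1 was less like Cpz (r = 0.69) and Sytl1 (r = 0.58). These r describe 12 libraries that share 6 groups and were in part the reason for the choice, and they carry no p.

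The genes most like each of the 4 were listed by r over the same 12 libraries. For Cpz they were Ddit4 (r = 0.96), which encodes an inhibitor of mTORC1 signalling that responds to stress, Sct (0.96), which encodes the hormone secretin, Lpin1 (0.96), which encodes a phosphatidate phosphatase of lipid synthesis, Cbln2 (0.96), which encodes a secreted synapse organiser, and Map3k12 (0.96), which encodes a kinase upstream of JNK. Their own differences with DOX ran from 0.45 to 1.60 in FL, from -0.42 to -0.08 in ΔA and from 0.55 to 1.99 in ΔB+C on the log2 scale. In each silencing line, all 5 differed less than Cpz.

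For Sytl1 they were Thra (r = 0.96), a thyroid hormone receptor, Dcxr (0.96), a carbonyl and xylulose reductase, Trafd1 (0.96), a negative regulator of innate immune signalling, Gna15 (0.95), a G protein alpha subunit, and Sdc4 (0.95), the heparan sulfate proteoglycan syndecan‐4. Their differences with DOX ran from 0.36 to 1.05 in FL and from 0.56 to 1.13 in ΔB+C. For Adhfe1 they were Gab1 (0.96), an adaptor of receptor tyrosine kinases, the zinc finger gene Zfp513 (0.95), 0610009O20Rik (0.95), Apoe (0.95), a lipid carrier protein, and Cdyl (0.94), a chromodomain corepressor, with differences of 0.31 to 0.63 in FL and 0.31 to 0.54 in ΔB+C. The 5 genes most like Adhfe1 also followed the difference between the 2 ΔA libraries of each treatment, in which replicate 2 was the higher.

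For Hopx they were Exosc3 (r = 0.94), a subunit of the RNA exosome, Fam96a (0.94), a factor of cytosolic iron and sulfur cluster assembly, Cmc1 (0.93), an assembly factor of cytochrome oxidase, Zfp395 (0.93) and Polr2f (0.92), a subunit shared by RNA polymerases. Each was lower with DOX in ΔB+C, by -0.42 to -0.23 on the log2 scale, which is a smaller difference than that of Hopx. The ranking used the same libraries that chose the 4 genes, and it changed when differences between replicate numbers were removed. The first gene of each list then ranked 15 for Cpz, 4 for Sytl1, 2 for Adhfe1 and 2 for Hopx, with r of 0.97, 0.96, 0.96 and 0.95, and the 5 genes named for Cpz ranked 15, 16, 23, 4 and 26.

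**Figure D3:**
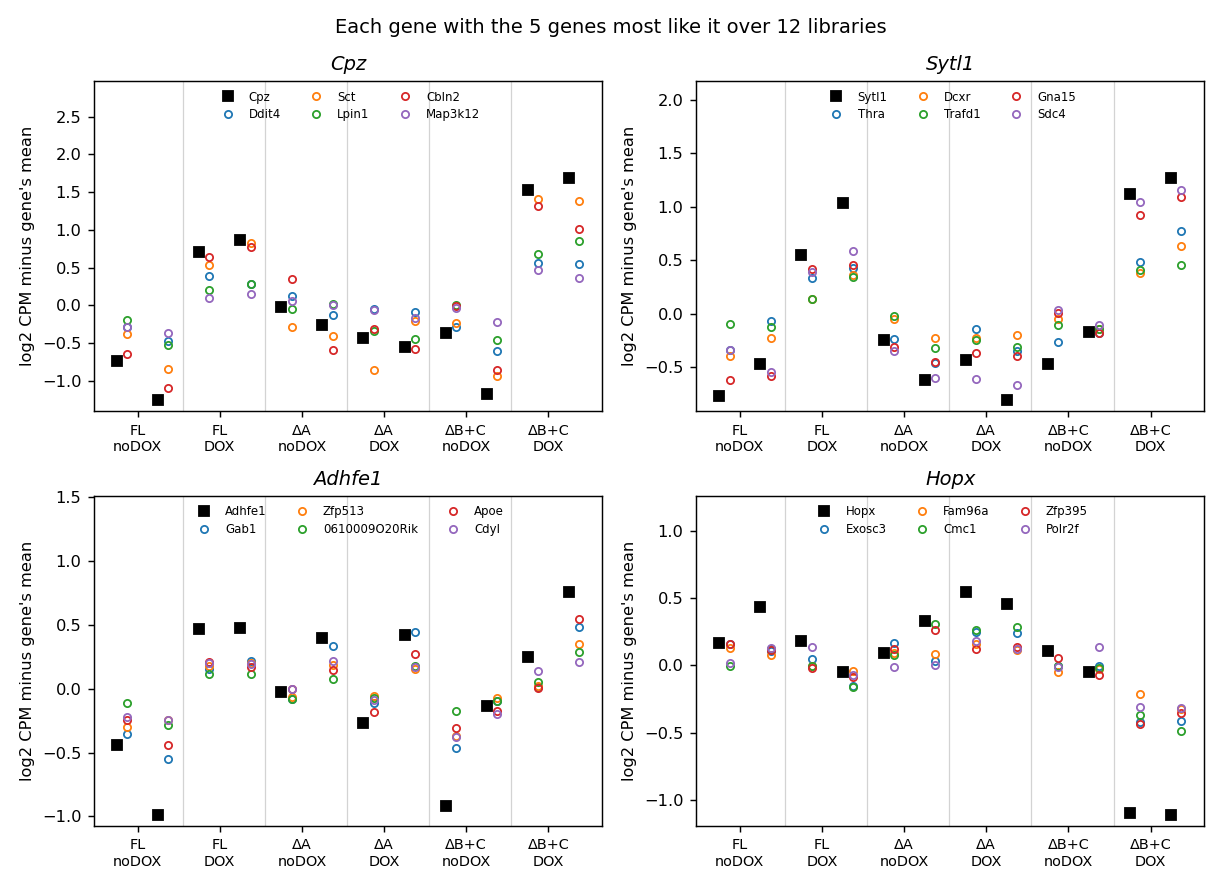
Log2 CPM minus the gene's own mean (y axis) of each gene (black squares) and of the 5 genes with the highest r to it (open circles, shifted to the right) in the 12 libraries, 2 to a group (x axis, replicate 1 on the left). In ΔB+C the similar genes differ less with DOX than Cpz, Sytl1, Adhfe1 or Hopx itself. For Hopx they differ by -0.42 to -0.23 in ΔB+C with DOX, against -1.15 for Hopx.

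The loci were then examined beyond the 4 genes. Of the 40 genes with a row in the files that lie nearest to them, 5 on each side, 22 were tested. None passed edgeR's test for DOX in any line, for the difference of the DOX response or between noDOX lines. At an unadjusted p under 0.05 the counts were 2, 0 and 4 of 22 for DOX in FL, ΔA and ΔB+C. They were 3, 0 and 3 for the response of ΔA minus FL, ΔB+C minus FL and ΔB+C minus ΔA, and 4, 1 and 2 for the same lines without DOX. Over all 13191 genes these counts were 1780, 149 and 2480 for DOX. They were 981, 106 and 1596 for the response, and 3416, 771 and 2984 without DOX. DESeq2 called Rest for DOX in FL, Rest and Wasf2 for DOX in ΔB+C and Wasf2 between ΔA and FL without DOX, and limma‐voom called none. With the replicate block (replicate number as a further term), edgeR called Rest (higher) for DOX in FL and 7 of 22 for DOX in ΔB+C, of which Mybl1, Rest, Srp72, Wasf2 and Wdtc1 were higher and Noa1 and Rrs1 lower. With that block, 1, 0 and 2 of 22 passed for the response of ΔA minus FL, ΔB+C minus FL and ΔB+C minus ΔA, and 8, 0 and 4 for the same lines without DOX. Over all 13191 genes, the block gave 1827 and 2887 calls for DOX in FL and ΔB+C. It gave 436, 0 and 1230 for the response and 4403, 131 and 3686 without DOX, in the same order.

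Cpz has Trmt44 at 30.5 kb on one side and Hmx1 at 102 kb on the other, and the 5 tested neighbours of Cpz had median differences with DOX of 0.05 in FL and 0.01 in ΔB+C on the log2 scale. Around Sytl1 the nearest gene, the kinase gene Map3k6, ends 0.16 kb from the end of Sytl1 on the opposite strand. Map3k6 stood at 2.24 and 2.75 CPM without and at 2.91 and 3.98 CPM with DOX in FL, at 2.54 and 2.97 and at 4.09 and 4.20 CPM in ΔB+C, and at 3.40 and 3.05 and at 2.67 and 2.42 CPM in ΔA. Its differences of 0.47, 0.59 and -0.34 on the log2 scale thus had the signs of those of Sytl1, at a smaller size, and did not pass the test. Tmem222, which lies 2.93 kb from the other end of Sytl1, had 0.05, 0.07 and 0.21 in the same order. Because the counting was unstranded, reads that run past the end of Sytl1 or Map3k6 cannot be assigned to a strand.

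Adhfe1 has the ribosome biogenesis gene Rrs1 at 0.49 kb, with differences of -0.11 in FL, 0.01 in ΔA and -0.27 in ΔB+C. Of the genes next to Hopx, the nearest, Thegl at 25.5 kb and Spink2 at 90.0 kb, were below the filter. Rest, a repressor of neuronal genes at 150 kb from Hopx, had differences of 0.54, -0.09 and 0.50 in FL, ΔA and ΔB+C, of the opposite sign to those of Hopx in each line.

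**Figure D4:**
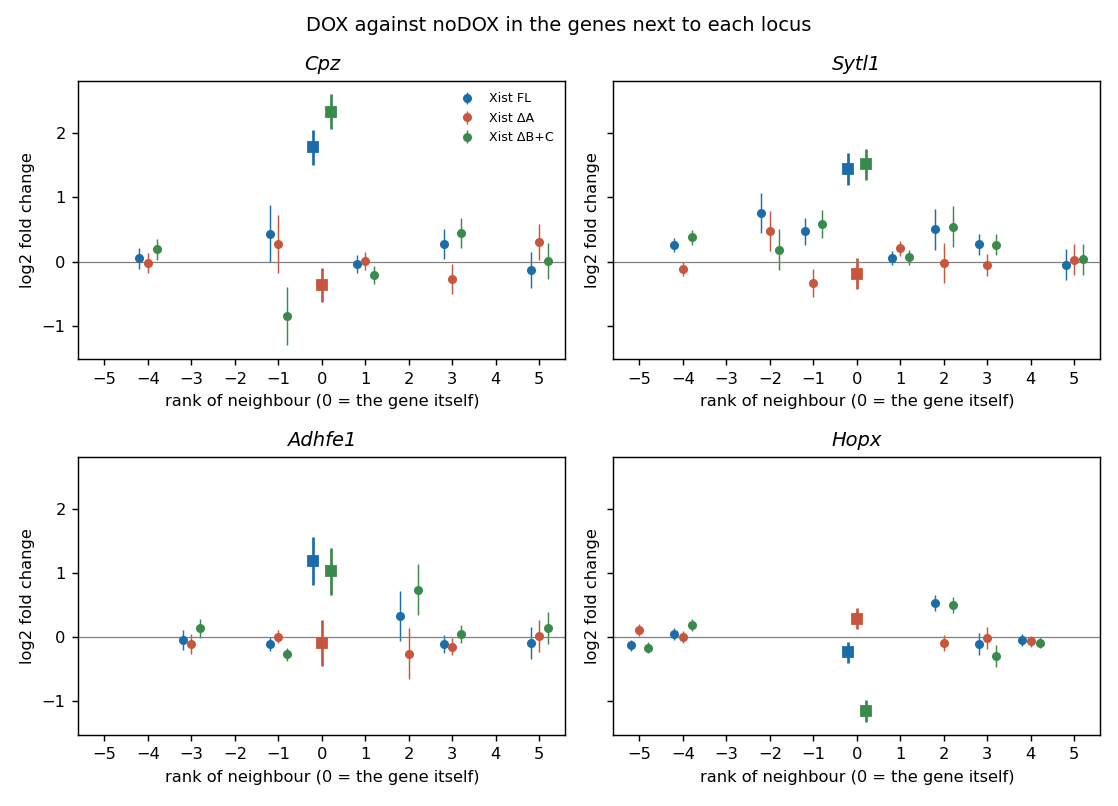
Log2 fold change with DOX (y axis, ± SE) of the tested neighbours of each gene, by their rank on the lower (negative) and higher coordinate side (x axis), with the gene itself as squares at 0. None of the 22 tested neighbours passed edgeR's test without the replicate block. In ΔB+C the squares of Cpz, Sytl1 and Hopx stand apart from their neighbours, while that of Adhfe1 at 1.03 ± 0.37 lies less than its SE above the highest of its neighbours, Mybl1 at 0.74.

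Relatives of the 4 genes by family or pathway were followed in 6 lists of 73 genes, of which 54 were tested. With DOX, 0 of the 54 rose and 1 fell in FL, 0 passed in ΔA, and 0 rose and 2 fell in ΔB+C. At an unadjusted p under 0.05 the counts were 11, 2 and 10, against 1780, 149 and 2480 of all 13191 genes. DESeq2 called 4, 0 and 7, against 555, 4 and 1086 of all genes. With the replicate block (replicate number as a further term), edgeR called 6 higher and 6 lower in FL, 0 in ΔA, and 6 higher and 8 lower in ΔB+C. Over all 13191 genes it called 1827, 3 and 2887 with the block in these lines. Calls of single relatives and counts for single lists are those of edgeR's test without the block, unless another test is named. The median difference of the 54 was 0.09, 0.01 and 0.06 on the log2 scale, against -0.0072, 0.00014 and -0.0030 for all tested genes.

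By edgeR's test, the relative that fell in both FL and ΔB+C was Smo (with DESeq2 and with the block, Idh3a also fell in both), which encodes the Hedgehog signal transducer Smoothened and shares the Frizzled‐type domain with carboxypeptidase Z. Smo stood at 119 and 139 CPM without and at 89.2 and 77.8 CPM with DOX in FL, at 175 and 177 and at 81.0 and 84.4 CPM in ΔB+C, and at 153 and 157 and at 173 and 155 CPM in ΔA. DOX libraries were thus the lower in FL and ΔB+C without overlap. Its log2 (fold change) was -0.63 ± 0.11 (SE) in FL (edgeR, adjusted p = 0.0280). In ΔB+C it was -1.09 ± 0.11 (edgeR, adjusted p = 0.00244), and the response in ΔB+C differed from that in ΔA by -1.17 ± 0.15 (adjusted p = 0.0306). The sign is opposite to that of Cpz in the same lines. In fits with 1 library left out, the call in ΔB+C passed in 12 of 12, while that in FL was lost in 8 of 12 (without any FL library or any noDOX library of ΔA or ΔB+C, adjusted p up to 0.311) and that of the difference in 10 of 12 (without any library but those of FL with DOX, adjusted p up to 0.181). In fits of the compared lines alone, which have fewer residual degrees of freedom, all 3 calls were lost, with adjusted p of 0.150 in FL, 0.148 in ΔB+C and 0.137 for the difference (edgeR).

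Among the 7 carboxypeptidases of the N/E family, which all were tested, 0 passed the test for DOX, and the values nearest to those of Cpz were 0.81 in FL and 0.69 in ΔB+C for Cpn1. The most abundant members, Cpd, Cpe and Cpxm1, had -0.10, -0.34 and 0.26 in FL and 0.08, -0.10 and 0.29 in ΔB+C. Of 21 proteins with a Frizzled‐type domain, 17 were tested and Smo alone passed for DOX in edgeR's test, while DESeq2 also called Fzd5 in FL and Fzd3, Fzd5 and Ror2 in ΔB+C. The abundant Wnt receptor genes Fzd7 and Fzd2 stood at a log2 (fold change) of 0.37 and 0.33 in FL and 0.18 and 0.08 in ΔB+C. Of Rab27 and its effectors, to which Sytl1 belongs, 6 of 12 were tested and 0 passed, with Rab27a at 0.13 in FL and 0.35 in ΔB+C, Unc13d at 0.26 and 0.75 and Rph3al at -0.75 and -0.48. Their median was 0.20 in FL, 0.01 in ΔA and 0.31 in ΔB+C.

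In the metabolism of gamma‐hydroxybutyrate and 2‐hydroxyglutarate, to which Adhfe1 belongs, 12 of 14 genes were tested. Idh3a, a subunit of mitochondrial isocitrate dehydrogenase, fell in ΔB+C by 0.49 on the log2 scale (edgeR, adjusted p = 0.0126), from 140 and 137 to 102 and 96.0 CPM. That call was lost in 3 of 12 fits, without either ΔB+C noDOX library or without ΔB+C DOX replicate 2 (adjusted p up to 0.0919), and in the fit of ΔB+C alone (adjusted p = 0.270). The most abundant genes of this list, Glud1, Phgdh and Aldh9a1, had 0.42, -0.10 and -0.16 in FL and 0.36, -0.44 and -0.18 in ΔB+C. Of the zinc alcohol dehydrogenases only Adh5 was tested, with 0.16 in FL, 0.10 in ΔA and -0.02 in ΔB+C. Of SRF and the cardiac partners of Hopx, 0 passed for DOX in any line. Srf had 0.13, 0.09 and 0.00 and Hdac2, which encodes a histone deacetylase that binds Hopx, had -0.16, 0.05 and -0.24 in FL, ΔA and ΔB+C, and the SRF target Tagln had -0.13, 0.12 and 0.16.

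Between the lines without DOX, more relatives differed. In ΔA against FL, 7 of the 54 were higher and 2 lower, a background of 9.84% of all genes in either direction. The Wnt antagonist gene Sfrp4 had the largest difference, 3.03 ± 0.21 (SE, edgeR, adjusted p = 0.000109), and the Wnt receptor genes Fzd8 (1.40), Fzd4 (0.96) and Fzd7 (0.81) were also higher, while Fzd10 (-0.92) and Cpn1 (-1.13) were lower. Sfrp2 (0.50) and Glud1 (0.38) were higher as well. In ΔB+C against ΔA, 2 were higher, Fzd10 (1.07) and Ror2 (0.81), and 6 were lower, among them Sfrp4 (-3.27), and the background was 6.69%. Between ΔB+C and FL, edgeR called 0 of the 54, with 5 at an unadjusted p under 0.05 and 2 in DESeq2. Over all genes these 2 counts were 771 and 66. In fits with 1 library left out, the calls of Sfrp4 in both comparisons and of Fzd7 and Fzd8 between ΔA and FL passed in 12 of 12. Each other call was lost in 2 to 10 of the 12, most often that of Cpn1. In fits of the compared lines alone, those of Ror2 and Glud1 between ΔB+C and ΔA were lost (edgeR, adjusted p = 0.0676 and 0.0773). With the replicate block 24, 2 and 22 of the 54 passed for ΔA minus FL, ΔB+C minus FL and ΔB+C minus ΔA. That stands against 4403, 131 and 3686 of all 13191 genes.

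**Figure D5:**
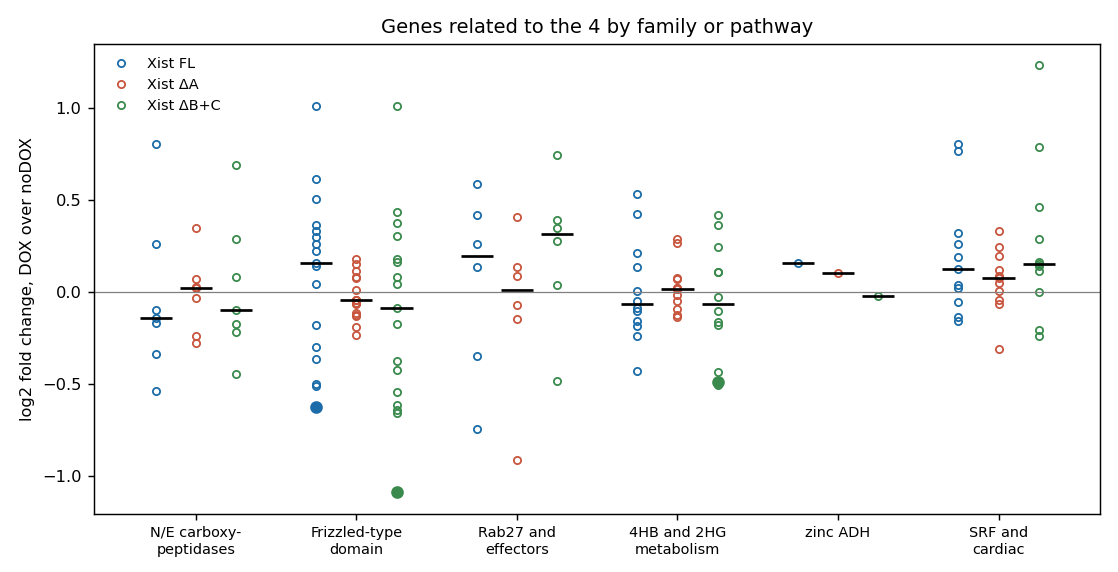
Log2 fold change with DOX (y axis) of the 54 tested relatives in 6 lists (x axis) in FL, ΔA and ΔB+C. Filled circles passed edgeR's test, open circles did not, and black lines are list medians. The filled circles are Smo in FL (-0.63) and ΔB+C (-1.09) and Idh3a in ΔB+C (-0.49).

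Markers of other cell types were compared with the groups in which the 4 genes differed. The 7 primitive endoderm markers summed to between 23.1 and 26.8 CPM without and 27.3 and 34.2 CPM with DOX in FL, to between 28.7 and 41.0 and between 43.1 and 56.9 CPM in ΔB+C, and to between 30.3 and 31.3 and between 25.4 and 27.6 CPM in ΔA. This sum was higher with DOX where Cpz was higher and lower where Cpz was lower. In FL it went from 26.8 to 27.3 CPM in libraries numbered 1 and from 23.1 to 34.2 CPM in those numbered 2. The rise in FL thus came mostly from libraries numbered 2. The part of this sum in the result was not tested. Dab2 alone held between 11.6 and 30.3 CPM of it. None of the 7 markers passed edgeR's test for DOX in any line. Their single differences ran from -0.18 to 0.88 in FL on the log2 scale, so that not all rose there. The 8 fibroblast markers summed to between 27.2 and 43.2 CPM without and 43.7 and 45.6 CPM with DOX in ΔB+C, and to between 15.4 and 18.8 and between 12.5 and 15.3 CPM in ΔA. In FL they summed to 23.0 and 58.3 CPM without and to 27.3 and 59.1 CPM with DOX, so that the groups overlapped. In ΔA this sum was thus lower with DOX, as Cpz was. In ΔB+C it went from 43.2 to 43.7 CPM in libraries numbered 1. In those numbered 2, whose DOX library is the low input one, it went from 27.2 to 45.6 CPM. The rise in ΔB+C thus lay in libraries numbered 2, of which the noDOX library stood low. The DOX libraries, the low input one included, were alike, at 43.7 and 45.6 CPM. None of the 5 tested fibroblast markers passed edgeR's test for DOX in any line, and the part of this sum was not tested. The cardiac mesoderm markers stand for a tissue in which Hopx is known. In ΔB+C, the line in which Hopx was lower, they summed to between 19.1 and 20.2 CPM without and 22.3 and 23.2 CPM with DOX. This sum overlapped in FL (23.5 to 28.4 without and 25.6 to 27.1 CPM with DOX). It also overlapped in ΔA (16.8 to 22.6 and 17.9 to 23.0 CPM). Myh6 alone held 10.5 to 19.3 CPM, and none of the 4 tested markers passed edgeR's test for DOX. The ES cell and trophoblast sums overlapped between DOX and noDOX in every line, but they differed much between replicate numbers. Within replicate numbers, the trophoblast sum was higher with DOX in ΔB+C (500 to 595 and 172 to 237 CPM). It was lower in ΔA (160 to 147 and 98.9 to 94.5 CPM) and went opposite ways in FL. The ES cell sum was higher with DOX within both numbers in FL and ΔA and went opposite ways in ΔB+C. The part of these sums was not tested.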

How the data were processed

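RNA‐seq of 12 libraries was analysed. The authors mapped the read pairs to mm10 with TopHat2 (2.1.0 in the submitters' processing notes) and the refFlat annotation, counted read pairs over exons of each gene with featureCounts 1.5.1 without regard to strand, and deposited these counts without normalization. Groups and replicate numbers came from the labels. The file names of noDOX replicate 1 libraries contain the word DOX, and the labels were followed. No pair of libraries held identical counts.

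The members and all gene lists were chosen with earlier results of these data known. All genes past a filter of 1 CPM in 6 of 12 libraries were fitted together with edgeR 4.0.16 in R 4.3.3 (quasi‐likelihood, 6 group means, TMM factors from expressed autosomal genes, between 0.978 and 1.02), with Benjamini‐Hochberg adjustment over all 13191 genes and a threshold of 0.05. Replicate numbers were compared with the groups as further terms. Log2 CPM used a prior count of 2. Intervals of counts are exact Poisson intervals at 95% and cover counting error only. Named are the 4 genes, Xist, the relatives past the test with the 3 most abundant of each list, the nearest neighbours and the 5 genes of highest r. Neighbours and relatives that only DESeq2 or the block called were named after their values were seen. A relative past the test is not reported here by name. Positions came from GENCODE vM21 and promoters from RefSeq (GRCm38.p6). Alternatives were DESeq2 1.42.0, limma‐voom 3.58.1, other scalings and filters, a replicate block, the compared lines alone and each library left out. The steps were tested on simulated counts. Figures were drawn with matplotlib 3.10.9.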

Additional observations from a re-analysis of the deposited data

Results flagged for a closer look

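By edgeR's test, the DOX response differed between lines in 1 relative. Without a test, 3 of the 4 genes were flagged. In these, libraries of both replicate numbers went opposite ways with DOX in 2 lines. All genes were not counted by this rule, and nothing is read from the count. Adhfe1 was not flagged, since its ΔA differences were -0.25 and 0.03 in libraries numbered 1 and 2. Its response differed by -1.28 ± 0.52 (SE) for ΔA minus FL and by 1.12 ± 0.52 for ΔB+C minus ΔA. For Smo the response of ΔB+C was below that of ΔA by -1.17 on the log2 scale, by edgeR's test of the difference. For Cpz, libraries of both replicate numbers were higher with DOX in FL and ΔB+C and lower in ΔA, and the response differed by -2.15 for ΔA minus FL and by 2.71 for ΔB+C minus ΔA. Sytl1 went the same ways, with -1.64 and 1.71. Hopx was lower with DOX in ΔB+C and higher in ΔA in libraries of both numbers, a difference of -1.44. The differences of the 4 genes were not tested, since the genes were chosen on them. No difference between lines, that of Smo included, was adjusted for the share of induced cells, which was largest in ΔB+C.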

How the results depend on the processing

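Counts of genes called by edgeR were 163, 1 and 388 for DOX in FL, ΔA and ΔB+C, 0, 0 and 27 for the differences of response ΔA minus FL, ΔB+C minus FL and ΔB+C minus ΔA, and 1298, 3 and 882 for the same differences between noDOX lines. In the same order they were 555, 4, 1086, 144, 0, 382, 2158, 66 and 1626 with DESeq2 and 1, 1, 1, 0, 0, 0, 1236, 0 and 352 in fits of the compared lines alone, which have fewer residual degrees of freedom. With library totals alone, 13 genes were called for the response of ΔB+C minus ΔA. With no filter on low counts, 46 were called there, 4 for ΔA minus FL and 1 between noDOX ΔB+C and FL, and with TMM factors from all expressed genes the last was 0. Of the 54 relatives, 4 passed for DOX in FL with DESeq2, 2 with library totals and 2 under a filter of 5 CPM, and 0 with the compared lines alone, and in ΔB+C 7 passed with DESeq2 and 0 with the compared lines alone. Of the 22 neighbours, 1 and 2 passed in these lines with DESeq2. The causes of these shifts were not tested. The filter of 5 CPM left out Cpz, Sytl1 and Adhfe1. Hopx kept no sign between replicate numbers, at -0.0030 with library totals and -0.0089 without the filter.

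The labels do not say what a replicate number stands for. Deviations of libraries with the same number correlated across genes, with a mean r of 0.609 over 15 pairs of groups (0.39 to 0.782). With the replicate block, the counts of genes called in the order above were 1827, 3, 2887, 436, 0, 1230, 4403, 131 and 3686, 12 and 14 relatives and 1 and 7 neighbours passed for DOX in FL and ΔB+C, and the values of the 4 genes moved by less than their SD between replicates.

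With 1 library left out at a time, the lone library of a group is assumed to vary like the others. The log2 difference for DOX in FL then ran from 1.55 to 2.07 for Cpz and 1.18 to 1.67 for Sytl1. In the same comparison it ran from 0.94 to 1.51 for Adhfe1 and -0.37 to -0.087 for Hopx. For DOX in ΔA it ran from -0.48 to -0.24 for Cpz, -0.40 to 0.015 for Sytl1, -0.48 to 0.23 for Adhfe1 and 0.17 to 0.41 for Hopx. For DOX in ΔB+C it ran from 2.00 to 2.82 for Cpz and 1.38 to 1.68 for Sytl1. There it also ran from 0.67 to 1.49 for Adhfe1 and -1.23 to -1.07 for Hopx. For the response of ΔA minus FL it ran from -2.44 to -1.92 for Cpz and -1.86 to -1.37 for Sytl1. There it also ran from -1.67 to -0.96 for Adhfe1 and 0.38 to 0.66 for Hopx. For the response of ΔB+C minus FL it ran from 0.21 to 1.03 for Cpz, -0.15 to 0.34 for Sytl1, -0.52 to 0.29 for Adhfe1 and -1.07 to -0.79 for Hopx. For the response of ΔB+C minus ΔA it ran from 2.36 to 3.18 for Cpz and 1.51 to 1.92 for Sytl1. There it also ran from 0.76 to 1.58 for Adhfe1 and -1.57 to -1.33 for Hopx. For noDOX ΔA minus FL it ran from 0.62 to 1.14 for Cpz and -0.0035 to 0.38 for Sytl1. There it also ran from 0.66 to 1.22 for Adhfe1 and -0.23 to 0.056 for Hopx. For noDOX ΔB+C minus FL it ran from -0.21 to 0.61 for Cpz, 0.14 to 0.47 for Sytl1, -0.26 to 0.56 for Adhfe1 and -0.42 to -0.13 for Hopx. For noDOX ΔB+C minus ΔA it ran from -1.06 to -0.25 for Cpz, -0.069 to 0.31 for Sytl1, -1.17 to -0.35 for Adhfe1 and -0.30 to -0.058 for Hopx. Between replicate numbers it ran from -0.27 to -0.079 for Cpz, 0.011 to 0.19 for Sytl1, 0.25 to 0.47 for Adhfe1 and -0.054 to 0.056 for Hopx. Genes called ran from 4 to 228 for DOX in FL (fewest without FL DOX replicate 2), 47 to 334 for DOX in ΔB+C (fewest without ΔB+C DOX replicate 2), 0 to 12 for the response of ΔB+C minus ΔA, 259 to 1495 for noDOX ΔA minus FL (fewest without ΔA noDOX replicate 2), 0 in each fit for noDOX ΔB+C minus FL and 180 to 990 for noDOX ΔB+C minus ΔA (fewest without ΔB+C noDOX replicate 1). Relatives called ran from 0 to 3 for DOX in FL and 1 to 4 for DOX in ΔB+C. Depth limits Adhfe1 most, whose lowest library held 35 counts.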
